A study of Homo sapiens with 2 samples.

Results

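The genes described here encode the subunits of the proteasome and the proteins that assemble, activate or inhibit it. They were taken as the protein-coding genes whose symbol is PSM followed by a letter from A to G and a number, leaving out PSMB8, PSMB9 and PSMB10, the inducible subunits of the immunoproteasome. The rule found 46 of 58735 genes, and 44 had at least 10 counts in at least 1 library and were compared (called tested genes below). The rule reads names and gene types, not expression values, although the group was proposed with earlier results of these data known. PSMC3IP was matched by its symbol but is a cofactor of meiotic and repair recombination, not a proteasome protein. It is counted in the totals of the 44 genes and in the promoter search below, but in no set by role.

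RNA was sequenced from PLC8024, a line labelled 8024 and Alexander cells, which derives from human hepatocellular carcinoma and grows as an epithelium. The MAEL WT library came from wildtype, non-treated cells. The MAEL KO library came from cells of the same line in which MAEL, which encodes a germline protein of the piRNA pathway that some tumours express, had been targeted with an sgRNA and Cas9. By the study's methods, the edited cells were sorted on mCherry carried by the plasmid and grown as single clones, and the knockout was checked by Western blot and a T7E1 assay. There was 1 library of each genotype, so a difference between them may come from the clone, the culture or the library as well as from MAEL, and these cannot be told apart. No p-value is given, and each interval is an exact 95% Clopper-Pearson interval that covers counting error only.

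The proteasome is the protease that degrades ubiquitin-tagged proteins in the cytosol and nucleus. Its barrel-shaped core is built of outer alpha rings, which gate the entrance, and inner beta rings, in which 3 subunits carry the proteolytic sites. A regulatory particle caps the core: its base holds a ring of ATPases that unfold substrates, and its lid removes ubiquitin. When proteasome activity falls the transcription factor NRF1 (gene NFE2L1) raises their genes together through antioxidant response elements in their promoters.

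The MAEL WT library held 19904136 counts and the MAEL KO library 20833332. MAEL itself had 1 and 0 counts, both under the floor of 3 counts used here for detection, so its transcript does not check the genotype labels. Of 10 hepatocyte and liver epithelial markers, 10 were above the floor in MAEL WT and 9 in MAEL KO, and their summed level was 9290 and 20263 CPM (counts scaled to a common library total). SERPINA1 (78162 and 232891 counts) and APOB (80091 and 135805) made up most of that sum, and ALB had 59 and 8550 counts. EPCAM was the marker under the floor in MAEL KO, with 15 counts against 0. Only EPCAM and FOXA2 (2099 and 1316) had fewer counts in MAEL KO. PTPRC, the defining leukocyte marker, had 3 and 0 counts and CD3E had none in either library. Of all leukocyte markers, 1 of 4 and 2 of 4 passed the floor, with a summed level of 63.1 and 35.6 CPM, nearly all of it from LYZ, the lysozyme gene (1251 of 1256 and 737 of 742 counts). For endothelium 2 of 3 did so in both libraries, at 17.7 and 19.5 CPM, and for fibroblasts and stellate cells 2 of 4 in both, at 10.95 and 1.97 CPM. The part of these shifts in the results below was not tested. Both libraries came from the same cultured line, so these markers do not count cells of other types. Bulk RNA does not show how a transcript is spread over the cells of the line.

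Proteasome transcripts were modestly higher in MAEL KO as a group. Their summed count was 115532 in MAEL WT and 135973 in MAEL KO, or 0.580% and 0.653% of each library. On the log2 scale, after scaling with trimmed mean of M-values (TMM) factors and adding 1 to the normalized count, the median difference (MAEL KO minus MAEL WT) over the 44 genes was 0.43. The middle of the group lay between 0.24 and 0.63 (quartiles), and the extremes were PSMG3 at -0.38 and PSMD1 at 1.07. Over all 17887 tested genes the median was -0.04, with a much wider spread (quartiles -0.64 and 0.48). Of the 44 genes, 37 were higher in MAEL KO and 7 lower, which is 84.1% above 0 against 48.0% of all tested genes. Well-counted genes in general also leaned upward: of 5431 protein-coding genes with at least 1000 counts, 61.9% were above 0, with a median of 0.18. The 38 proteasome genes with that many counts had a median of 0.43, 31 of them above 0.

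The differences were small for single genes. Only PSMD1 exceeded a log2 difference of 1, and none was below -1, whereas 10.2% of all tested genes lay above 1 and 16.5% below -1. None passed 2 in either direction, the limit the study used for its own calls, against 7.8% of tested genes. Of the 5431 well-counted coding genes, 561 lay above 1, 266 below -1 and 138 past 2 in either direction. At 0.5 the count was 17 of 44, PSMC3IP (0.71) among them, or 38.6%. The shares were 24.0% of all tested genes and 30.0% of the well-counted coding genes. By their counting intervals, 35 genes lay above 0, 4 below 0 (PSMC4, PSMD8, PSME2 and PSMG3) and 5 with an interval that included 0 (PSMA6, PSMD4, PSMD9, PSME1 and PSMF1). The 4 genes below 0 have GC-rich transcripts (55.2% to 58.8%). PSMD3 (58.6%) and PSMC3 (56.2%) lie in the same range of GC content but were higher in MAEL KO, at 0.44 and 0.26. After the median of genes of like GC content was subtracted, an alternative chosen after seeing the data, PSMC4 stood at -0.02, PSMD8 at -0.04, PSME2 at -0.01 and PSMG3 at -0.18. The size depended on the scaling. When libraries were scaled by their totals alone, the group's median was 0.16 and 28 of 44 genes were above 0 (63.6%), while the median of all tested genes fell to -0.31, with 34.6% above 0. The distance between the group's median and that of all genes was 0.47 under both scalings. It could hardly change, because a change of scaling shifts every gene by nearly the same amount. With total counts the median of the well-counted coding genes was -0.09.

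**Figure D1:**
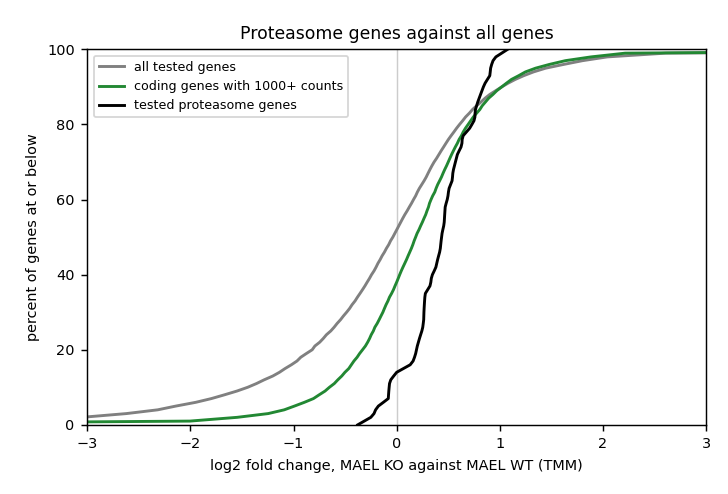
The percent of genes at or below each log2 difference (MAEL KO minus MAEL WT, TMM scaling) is plotted for the tested proteasome genes, for all tested genes and for coding genes with at least 1000 counts. The proteasome curve climbs steeply between -0.38 and 1.07 around a median of 0.43, while the other curves are wider, with medians of -0.04 and 0.18.

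**Figure D2:**
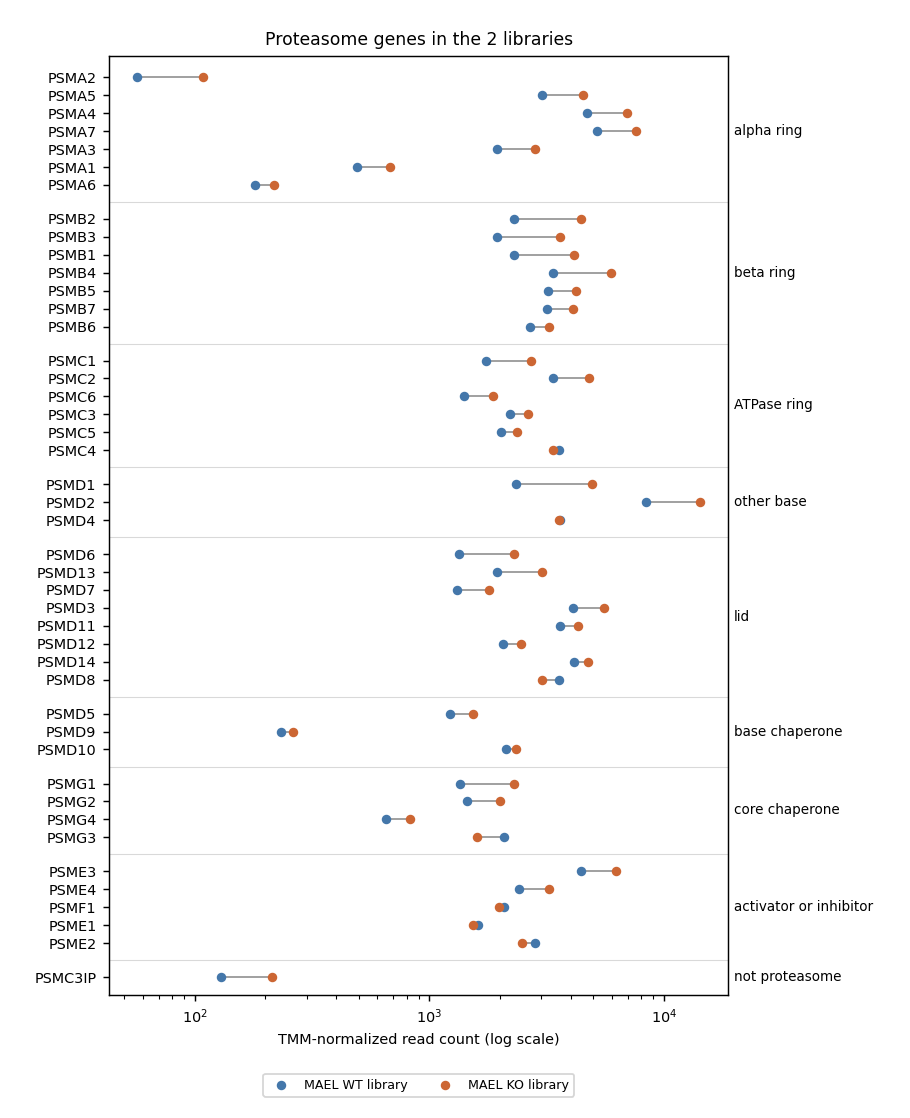
Each row is 1 proteasome gene, ordered by role, with its TMM-normalized read count in the MAEL WT and MAEL KO libraries on a log axis. Most pairs lie above 1000, and PSMC4, PSMD4, PSMD8, PSME1, PSME2, PSMF1 and PSMG3 are the 7 genes whose MAEL KO point lies to the left.

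All 7 alpha subunits, which form the outer rings of the core, were higher in MAEL KO, with a median log2 difference of 0.54. PSMA7 had the highest level per length of any proteasome gene, with deposited FPKM (read counts scaled to gene length and library size) of 145 in MAEL WT and 212 in MAEL KO. Its counts were 5567 and 7020, a log2 difference of 0.54 (0.49 to 0.60). Close to it were PSMA3, whose tail helps to close the gate, with 2082 and 2613 counts (0.54), PSMA4, with 5037 and 6448 (0.57), and PSMA5, with 3222 and 4188 (0.59). These 4 well-counted alpha genes lay between 0.54 and 0.59 on the log2 scale, and between 0.38 (PSMA3) and 0.64 (PSMA7) after GC subtraction. The remaining 3 were counted at far lower depth. PSMA1 had 526 and 630 counts (0.47), PSMA6 193 and 202 (0.27, -0.02 to 0.57) and PSMA2 61 and 100 (0.91, 0.45 to 1.41).

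The low counts of PSMA1, PSMA2 and PSMA6 went with overlapping gene models. In the GENCODE 29 annotation, 53.2% of the principal transcript of PSMA1, 52.5% of that of PSMA2 and 81.0% of that of PSMA6 lie in exons of a second protein-coding model on the same strand. Those models, AC018523.2, AC010132.3 and AL121594.1, had 1 and 1, 0 and 0, and 4 and 3 counts in MAEL WT and MAEL KO. Per kilobase of principal transcript, the normalized count was 326 and 451 for PSMA1, 38.2 and 72.5 for PSMA2, and 175 and 212 for PSMA6. The other 11 core subunits ranged from 805 to 5210 in MAEL WT and from 1211 to 7601 in MAEL KO, although the core holds its 14 kinds of subunit in equal number. The part of the overlap in these low counts was not tested, and the values of these 3 genes are uncertain.

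**Figure D3:**
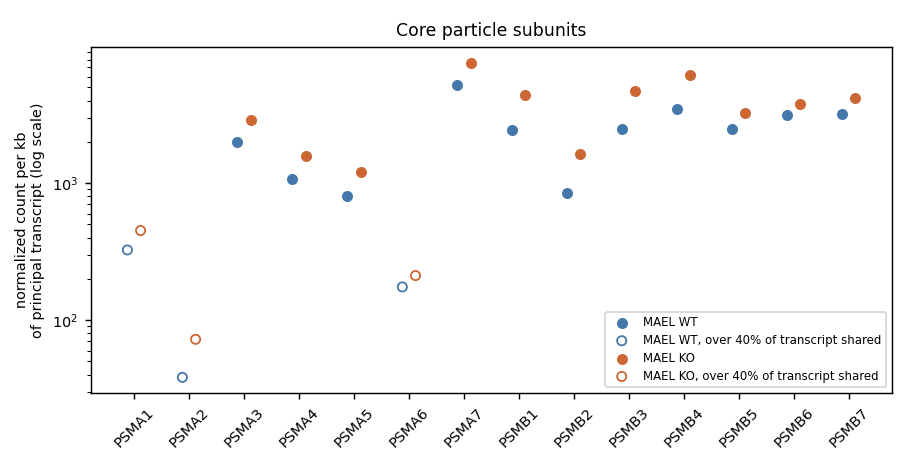
The normalized read count per kilobase of principal transcript is shown on a log axis for the 14 core subunits in both libraries, with open circles for genes with over 40% of the transcript in exons of another gene. PSMA1, PSMA2 and PSMA6 lie below the other 11 in both libraries, and all 14 are higher in MAEL KO.

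The beta subunits, the inner rings of the core, had the highest median of the rings, 0.82, and they fell into 2 sets. The 4 subunits without a proteolytic site were each 1.76- to 1.92-fold higher in MAEL KO. PSMB2 had 2464 counts in MAEL WT and 4094 in MAEL KO, a log2 difference of 0.94 (0.87 to 1.02). PSMB3 had 2073 and 3350 (0.90, 0.82 to 0.98), which took its FPKM from 80.4 to 150. PSMB1 had 2451 and 3818 (0.85, 0.78 to 0.92), and PSMB4 had 3614 and 5506 (0.82, 0.76 to 0.88). All 4 were higher in MAEL KO under every scaling tried. The 3 catalytic subunits differed far less. PSMB5, which carries the chymotrypsin-like site, had 3439 and 3916 counts (0.40, 0.33 to 0.46). PSMB7, with the trypsin-like site, had 3385 and 3803 (0.38, 0.31 to 0.45), and PSMB6, with the caspase-like site, had 2864 and 2982 (0.27, 0.19 to 0.34). No interval of the catalytic set reached that of any of the other 4 genes. PSMB6 was at -0.01 with total counts, so its direction depended on the scaling.

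The split within the beta ring does not depend on how the libraries were scaled, since both sets come from the same library. The summed count of PSMB1 to PSMB4 was 10602 in MAEL WT and 16768 in MAEL KO, and that of PSMB5 to PSMB7 was 9688 and 10701. Their ratio was therefore 1.09 in MAEL WT and 1.57 in MAEL KO. The split was also present after the median of genes of like GC content was subtracted, with medians of 0.90 and 0.43. It was noticed in these data, and 1 library of each genotype gives no replicate error against which to set it.

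The 3 inducible subunits that take the places of PSMB5, PSMB6 and PSMB7 in the immunoproteasome, which shapes peptides for presentation on MHC class I, were all lower in MAEL KO. PSMB8 had 199 counts in MAEL WT and 9 in MAEL KO, 17.4-fold lower (log2 -4.12, -5.41 to -3.30). PSMB9 had 287 and 42, 5.80-fold lower (-2.54, -3.07 to -2.09). PSMB10 had 48 and 21, 1.93-fold lower (-0.95, -1.80 to -0.21), and 45.3% of its principal transcript overlaps a second gene model on the same strand. PSMB8 and PSMB9 are neighbours in the MHC region of chromosome 6 (GRCh38), at 32840717 to 32844703 on the minus strand and 32844136 to 32859585 on the plus strand, and share 139 exonic bases. PSMB10 lies on chromosome 16 at 67934502 to 67937087.

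These inducible subunits were a small part of each catalytic pair even in MAEL WT. By FPKM, PSMB8 made up 3.30% of the PSMB5 and PSMB8 pair in MAEL WT and 0.135% in MAEL KO. PSMB9 made up 4.51% and 0.660% of its pair with PSMB6, and PSMB10 made up 1.35% and 0.530% of its pair with PSMB7. FPKM divides by all exons of a gene: 2997 and 3072 bases for PSMB8 and PSMB9, and 1765 and 1448 for PSMB5 and PSMB6. Their principal transcripts have 1124, 782, 1294 and 852 bases, so by that length the shares of PSMB8 and PSMB9 would be larger. That of PSMB10 would be smaller (1853 and 1787 bases for PSMB10 and PSMB7, against 1218 and 980). In each pair the constitutive gene was higher in MAEL KO by TMM scaling and the inducible one lower, and the log2 difference was larger in the inducible gene.

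**Figure D4:**
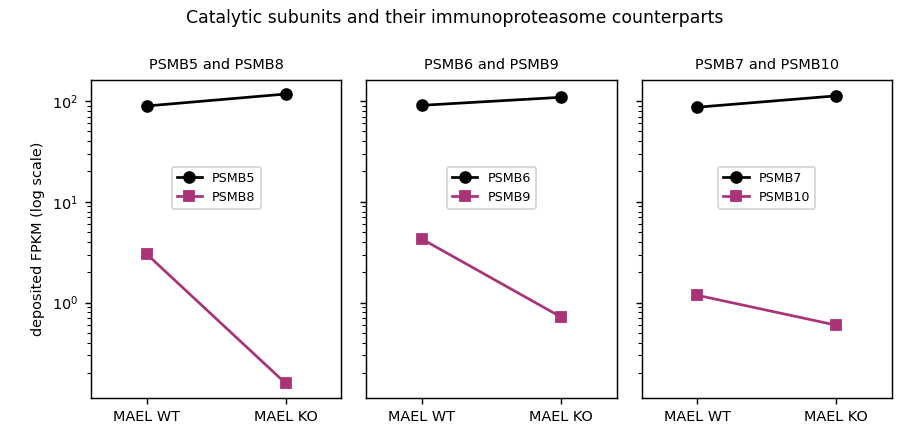
Deposited FPKM on a log axis is plotted for each constitutive catalytic subunit and the inducible subunit that replaces it, in 1 library per genotype, with lines joining the 2 values of a gene. The constitutive genes stay near 100 in both libraries, while PSMB8, PSMB9 and PSMB10 are lower in MAEL KO.

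In the base of the regulatory particle, the 6 ATPases had a median of 0.34, with 5 of 6 higher in MAEL KO. PSMC1, whose tail docks into the alpha ring to open the gate, had 1875 and 2510 counts (0.63), and PSMC2 had 3609 and 4426 (0.50). PSMC6 had 1502 and 1738 (0.42), PSMC3 2354 and 2443 (0.26) and PSMC5 2168 and 2187 (0.22). PSMC4 alone was lower, with 3818 counts in MAEL WT and 3117 in MAEL KO (-0.08, -0.15 to -0.01). The ATPases form 1 ring with 1 copy of each, yet their log2 differences ran from -0.08 to 0.63. With total counts PSMC3 and PSMC5 stood at -0.01 and -0.05, so 3 of 6 ATPases were then above 0. Of the principal transcript of PSMC1, 82.1% overlaps exons of NRDE2 on the opposite strand. NRDE2 had 426 and 822 counts. For PSMC5 the overlap was 27.2%, with exons of FTSJ3 on the opposite strand (2389 and 3306 counts). Whether the counting used strand is not given in the sources used here, so the values of PSMC1 and PSMC5 are uncertain.

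The 2 largest subunits of the particle, which are the scaffolds that receive substrates and shuttle proteins, differed more than any ATPase. PSMD1 had 2516 counts in MAEL WT and 4579 in MAEL KO, 2.11-fold higher (log2 1.07, 1.00 to 1.14), the largest difference of all 44 genes. With total counts it stood at 0.80 and was still the largest. PSMD2 had 9018 and 13173 (0.76, 0.72 to 0.80), the most counts of any proteasome gene. PSMD4, the ubiquitin receptor that sits between base and lid, had 3845 and 3315 counts, a log2 difference of -0.00 (-0.07 to 0.06).

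The 8 lid subunits had a median of 0.35, and 7 of 8 were higher in MAEL KO. PSMD6 led, with 1428 and 2129 counts (0.79), followed by PSMD13 with 2087 and 2803 (0.64). PSMD7, the inactive partner of the lid's deubiquitinase, had 1406 and 1671 (0.46), with 50.4% of its principal transcript in exons of AC009120.2 on the opposite strand (15 and 7 counts). PSMD3 had 4395 and 5154 (0.44). The lid's catalytic subunit PSMD14, which cuts ubiquitin chains from the substrate, had nearly equal counts, 4432 and 4396 (0.20). PSMD11, a subunit that clamps lid to core, had 3851 and 3989 (0.26) and PSMD12 had 2210 and 2272 (0.25). PSMD8 was lower, with 3807 counts in MAEL WT and 2804 in MAEL KO (-0.23, -0.30 to -0.16), and stood at -0.04 after GC subtraction. The sign of several lid genes depended on the scaling. With total counts PSMD11, PSMD12 and PSMD14 stood at -0.02, -0.03 and -0.08, leaving 4 of 8 above 0. By particle, 14 of 14 core genes and 14 of 17 regulatory genes were above 0, with medians of 0.56 and 0.42, and with total counts 12 of 14 and 9 of 17.

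**Figure D5:**
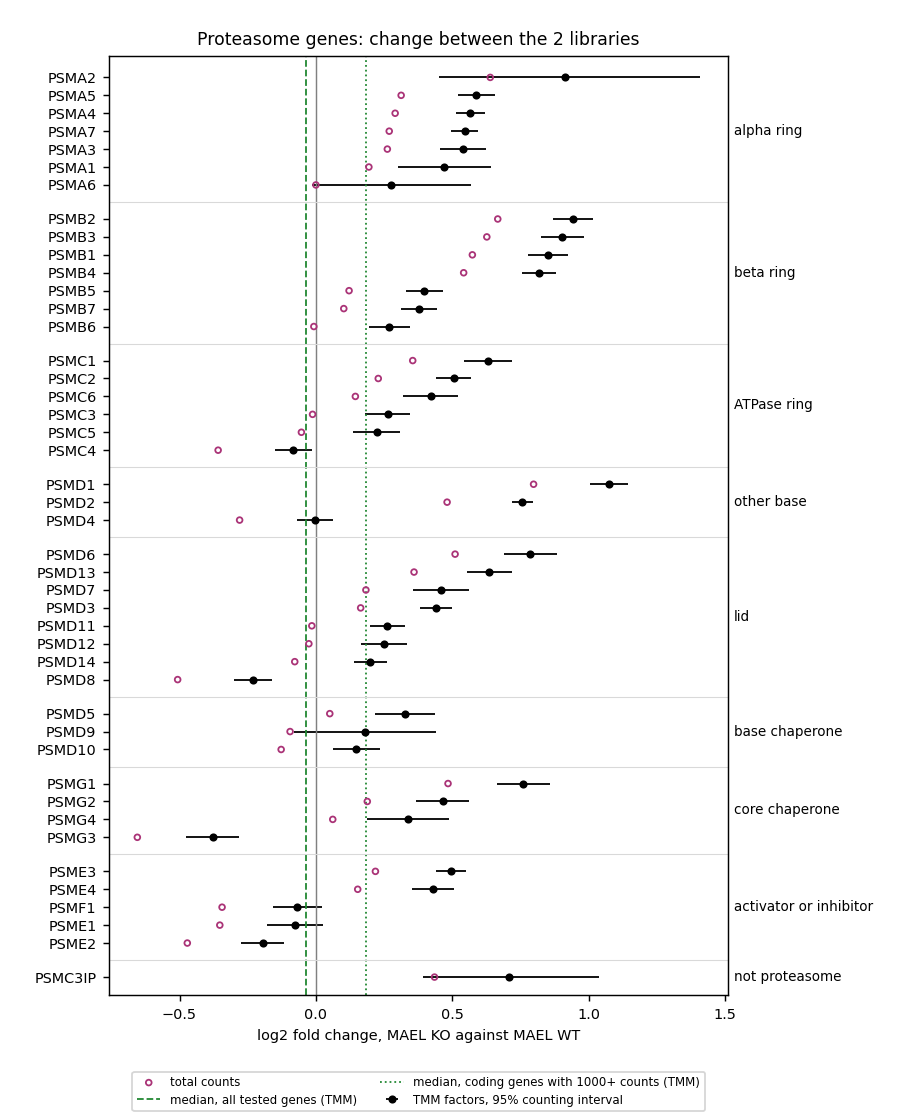
The log2 difference (MAEL KO minus MAEL WT) of each tested gene is shown by role, with filled points and bars for TMM scaling and its 95% counting interval, open points for total counts, and lines at the medians of all tested genes (-0.04) and of well-counted coding genes (0.18). The alpha and beta rings lie wholly above 0 under TMM scaling, PSMB1 to PSMB4 stand apart from PSMB5 to PSMB7, and total counts move every gene to the left.

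Of the chaperones of core assembly, PSMG1 and PSMG2 work as a dimer. PSMG1 had 1447 and 2119 counts (0.76, the highest of the set) and PSMG2 had 1557 and 1857 (0.46). PSMG3 and PSMG4 form the other dimer and lay on opposite sides of 0. PSMG4 had 703 counts in MAEL WT and 768 in MAEL KO (0.34), whereas PSMG3 had 2234 and 1485 (-0.38, -0.47 to -0.28), the lowest value of all 44 genes. With total counts PSMG3 stood at -0.65, and after GC subtraction at -0.18. The 3 chaperones of the base were each slightly above 0 with TMM scaling. PSMD5 had 1306 and 1416 counts (0.33), PSMD9 had 249 and 244 (0.18, -0.08 to 0.44), with 43.8% of its principal transcript in exons of other genes, and PSMD10, also known as gankyrin and described as an oncoprotein of the liver, had 2270 and 2175 (0.15). With total counts only PSMD5 of these 3 was above 0, and PSMD10 stood at -0.13.

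The activators and the inhibitor had a median of -0.07, the only set below 0 with TMM scaling. With total counts the base chaperones were below 0 too, at -0.09, against -0.34 for the activators and the inhibitor. PSME1 and PSME2 encode the interferon-inducible cap that is used with the immunoproteasome. PSME1 had 1731 counts in MAEL WT and 1419 in MAEL KO (-0.08, -0.18 to 0.03), and PSME2 had 3035 and 2291 (-0.20, -0.27 to -0.12), which became -0.01 after GC subtraction. PSMF1, an inhibitor of the core in the test tube, had 2234 and 1842 (-0.07, -0.16 to 0.02). The nuclear activators were higher in MAEL KO: PSME3 had 4749 and 5782 counts (0.49) and PSME4 had 2579 and 3002 (0.43). PSMC3IP, the gene that shares only the symbol, had 139 and 197 counts (0.71, 0.39 to 1.04), with 54.4% of its principal transcript in exons of MLX on the opposite strand. Without it the median of the other 43 genes was 0.43, and 36 of them (83.7%) were above 0. PSMA8 and PSMB11, the testis and thymus forms of core subunits, had 0 counts in both libraries, which allows up to 0.151 CPM in MAEL WT and 0.144 CPM in MAEL KO.

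The proteasome genes lie on 17 chromosomes, so the group is not 1 stretch of the genome. All 7 on chromosome 17, PSMC3IP aside, were higher in MAEL KO with TMM scaling (median 0.27, against -0.07 for the 1131 tested genes there). With total counts PSMB6, PSMC5, PSMD11 and PSMD12 of these lay below 0, between -0.05 and -0.01. Both on chromosome 19, PSMC4 and PSMD8, were lower (median -0.16, against -0.10 for 1308). On chromosome 1, PSMA5, PSMB2 and PSMB4 were higher and PSMD4 was at -0.00. The levels of the 44 genes kept nearly the same order in both libraries, with a Spearman rank correlation of FPKM of 0.95 across genes, which are not independent replicates. The log2 difference fell with the GC content of the transcript, with a rank correlation of -0.31 over the 44 genes and -0.12 over the 17875 tested genes with a GC value. After subtraction of the median of each of 20 bins of GC content, the median of the proteasome genes was 0.41, with 37 of 44 above 0. Without the 7 genes with over 40% of the principal transcript in exons of other genes (PSMA1, PSMA2, PSMA6, PSMC1, PSMC3IP, PSMD7 and PSMD9), it was 0.42, with 30 of 37 above 0 (81.1%).

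A list of 8 genes held 6 transcription factors linked to proteasome promoters and the enzymes DDI2 and NGLY1, which release active NRF1. This list and those that follow were written with earlier results of these data known. Of the 8 genes, 4 were higher in MAEL KO, a share near the 48.0% of all tested genes, none was above 1, 2 were below -1, and the median was -0.30. Of the 6 factors, 2 were higher. NFE2L1, the factor that restores proteasome genes when activity falls, had 13467 counts in MAEL WT and 6288 in MAEL KO, a log2 difference of -0.89. Its relative NFE2L2, the oxidative stress factor NRF2, had 2321 and 3706 (0.89), and NFE2L3 had 424 and 404 (0.14). DDI2, a protease, and NGLY1, a deglycosylase, had 1606 and 1964 counts (0.50) and 1251 and 1735 (0.68). The small MAF proteins, which pair with these factors on DNA, were all lower: MAFG had 2899 and 938 counts (-1.42), MAFK 8517 and 3231 (-1.19) and MAFF 1647 and 850 (-0.74). Transcript counts do not measure the activity of these factors, which is set largely by protein processing and turnover.

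The promoters of the proteasome genes were searched for the element these factors bind. RefSeq windows (GRCh38.p14) of 250 bases before to 50 bases after a gene's start were found for 40 of the 46 genes. None was used for PSMA7, PSMB1, PSMB6, PSMB7, PSMD4 and PSMG3. The 40 include PSMA8 and PSMB11, which were not tested. They had 49 windows, and a gene was counted when at least 1 of its windows matched. The core of the antioxidant response element, TGACNNNGC on either strand, was in 14 of 40 (35.0%), against 16.1% of 27195 genes with a window and 19.3% of the tested coding genes. The 14 genes with it had a median log2 difference of 0.38, with 11 above 0, and the 24 tested genes without it 0.48, with 22 above 0. CCAAT was in 20 of 40 (50%, against 39.7% of all and 43.1% of the tested coding genes). The 19 tested genes with it had a median of 0.50 and those without it 0.34. CCGGAAG, a core of ETS factor sites, was in 16 of 40 (40%, against 12.2% and 21.4%). The 15 tested genes with it had a median of 0.42 and those without it 0.47. The genes with the NRF1 element ranged from -0.20 to 1.07 and those without it from -0.23 to 0.94. Whether the element has a part in these differences was not tested. The 4 stretches below are shown because they carry the element upstream of the 2 lowest and the 2 highest genes with such a match. Each is the 250 bases before the start, read 5′ to 3′ on the gene's strand, with the match in capitals. They are PSME2 (chr14:24146611-24146860, minus strand), PSME1 (chr14:24135944-24136193, plus strand), PSMG1 (chr21:39183452-39183701, minus strand) and PSMB3 (chr17:38752491-38752740, plus strand).
PSME2: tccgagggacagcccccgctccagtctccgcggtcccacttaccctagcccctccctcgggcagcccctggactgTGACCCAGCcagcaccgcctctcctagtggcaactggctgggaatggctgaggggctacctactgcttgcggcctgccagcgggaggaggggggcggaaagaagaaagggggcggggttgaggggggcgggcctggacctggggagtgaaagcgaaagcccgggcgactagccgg
PSME1: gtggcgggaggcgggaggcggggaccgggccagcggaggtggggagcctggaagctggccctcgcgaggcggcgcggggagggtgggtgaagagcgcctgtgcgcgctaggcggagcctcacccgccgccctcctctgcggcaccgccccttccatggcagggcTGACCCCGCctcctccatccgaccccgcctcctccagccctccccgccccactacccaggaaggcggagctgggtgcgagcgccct
PSMG1: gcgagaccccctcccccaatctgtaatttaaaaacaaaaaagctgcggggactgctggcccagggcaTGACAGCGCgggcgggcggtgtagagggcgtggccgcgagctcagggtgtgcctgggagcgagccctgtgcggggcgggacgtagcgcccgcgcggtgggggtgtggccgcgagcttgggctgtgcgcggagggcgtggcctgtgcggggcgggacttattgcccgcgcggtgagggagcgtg
PSMB3: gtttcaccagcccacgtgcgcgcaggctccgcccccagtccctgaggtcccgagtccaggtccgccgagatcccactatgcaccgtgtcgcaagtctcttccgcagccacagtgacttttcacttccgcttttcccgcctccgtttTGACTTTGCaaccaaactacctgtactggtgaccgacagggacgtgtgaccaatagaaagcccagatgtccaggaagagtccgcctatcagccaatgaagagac
The matches begin 175, 86, 183 and 104 bases before the start, in that order. PSME2 and PSME1, at -0.20 and -0.08, and PSMG1 and PSMB3, at 0.76 and 0.90, all hold the same 6 fixed letters. They were picked for holding them. A match of letters is not evidence that a factor binds there.

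Among other proteins that build or regulate the proteasome, 4 of 9 were above 0, with a median of -0.03, and the highest were a core and a lid protein. POMP, the maturation factor of the core, had 2160 counts in MAEL WT and 3412 in MAEL KO (0.87), and SEM1, the smallest lid subunit, had 1661 and 2541 (0.82). The lowest were ZFAND2A, a stress-induced partner of the regulatory particle, with 1151 and 701 (-0.50), and ZFAND5, an activator in muscle wasting, with 5004 and 3972 (-0.12). Of 10 deubiquitinases, ligases and ubiquitin receptors of the proteasome, 6 were above 0, with a median of 0.23. USP14 and UCHL5, the deubiquitinases that dock on the particle, had 2792 and 3745 counts (0.63) and 1533 and 1970 (0.57), and the receptor ADRM1, which holds UCHL5, had 2702 and 3125 (0.42). RAD23B, a shuttle that brings ubiquitinated proteins to the particle, had 5566 and 5957 (0.31). The ubiquilins UBQLN1, UBQLN2 and UBQLN4 stood at -0.12, -0.22 and -0.16, and the ligases UBE3C and UBE3A at 0.16 and 0.29.

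Upstream and downstream of the proteasome the picture was mixed. All 8 genes of ubiquitin and its activating enzymes were above 0, with a median of 0.36. RPS27A, which encodes ubiquitin fused to a ribosomal protein, had 10655 counts in MAEL WT and 16278 in MAEL KO (0.82). The polyubiquitin gene UBB had 7652 and 7230 (0.13). Of 14 genes of the VCP system, which extracts proteins for degradation, 7 were above 0 (median -0.01). VCP itself, the ATPase, had 13338 and 21711 counts (0.91) and DERL2, a channel protein of the endoplasmic reticulum, was next at 0.31, while DERL1 and SEL1L of the same membrane machinery had 2589 and 1468 (-0.61) and 6285 and 3830 (-0.50). All 8 cytosolic peptidases, which trim proteasome products, were above 0 (median 0.49), from DNPEP at 0.10 and NPEPPS at 0.34 to IDE at 0.74 and NLN at 0.99. Of 9 subunits of the COP9 signalosome, a complex related to the lid, 7 were above 0 (median 0.12), with COPS3 at 0.79 and COPS2 at 0.56 highest and COPS7B at -0.23 and COPS7A at -0.14 lowest. Over these lists and the transcription factors together, with ADRM1 counted once, 43 of 65 tested genes were above 0, with a median of 0.16, and with total counts that median was -0.11. Their share and median were close to those of well-counted coding genes (61.9% above 0, median 0.18), so nothing about these lists as a whole is read from them.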

How the data were processed

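Total RNA from PLC8024 cells was sequenced as 1 library per MAEL genotype. The submitters' processing notes name HISAT2 2.0.5, featureCounts 1.5.0-p3 and hg19, while gene positions in the table match GENCODE 29 on GRCh38, and coordinates are given in that build. The authors deposited raw read counts per gene and FPKM values calculated from them, whose library sizes were 1.10 and 0.910 times the count totals. Nothing in the labels describes separate cultures.

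Counts of all genes were scaled with edgeR 4.0.16 TMM factors (1.10 and 0.909), and 1 was added to the normalized count. Genes with at least 10 counts in 1 library were compared by size, with no test. Intervals are exact Clopper-Pearson limits of the part of each gene's counts that came from MAEL KO. They cover counting error only, because there was 1 library of each genotype. PCR copies were not told apart from molecules, so the intervals may be too narrow even for counting error. Every proteasome gene was named. Of the other lists, the factors and receptors were all named, and otherwise the 2 genes at each end, except that some genes of these lists are counted in the list totals but not reported here. The genes and lists were chosen with earlier results of these data known. The scripts were tested on simulated data. Alternatives were DESeq2 1.42.0 size factors, total counts, deposited FPKM, added counts of 0.1 and 5, other count filters, coding genes alone and other fold thresholds. Correction for GC content and the removal of overlapped genes or PSMC3IP were chosen after seeing the data. R 4.3.3, Python 3.11.15, NumPy 2.4.6, SciPy 1.17.1 and pandas 2.3.3 were used.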

Additional observations from a re-analysis of the deposited data

How the results depend on the processing

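With total counts, the median of the proteasome genes was 0.16, the share above 0 was 63.6%, 0 genes exceeded 1 and the median of the other pathway lists was -0.11. The signs of PSMB6 (-0.0076), PSMC3 (-0.0123), PSMC5 (-0.0532), PSMD10 (-0.127), PSMD11 (-0.015), PSMD12 (-0.0259) and PSMD14 (-0.0776) reversed. PSMA6 (-0.0001) and PSMD9 (-0.0947), whose intervals included 0, changed sign too. This scaling moved the median of all tested genes by -0.27. A threshold of 0.5 gave 17 higher genes and a threshold of 2 gave 0. Subtraction of GC bin medians put PSMD10 at -0.0043. Of the 44 genes, total counts moved 34 beyond the counting interval and reversed 7, leaving 3, and GC subtraction moved 16 and reversed 1, leaving 27. The DESeq2, FPKM and both added-count alternatives moved 0 of 44. The DESeq2, FPKM, added-count and coding-gene alternatives gave group medians of 0.40 to 0.43. The FPKM and added-count results could hardly have differed, so nothing about stability is read from them. The library sizes behind the FPKM were 1.10 and 0.910 times the count totals, close to the TMM factors of 1.10 and 0.909. The added counts were small beside the counts of most genes, as 38 of the 44 had at least 1000 in 1 library. No paired analysis was possible because each genotype has 1 library, and for the same reason no library could be left out. Genes with few counts, such as PSMA2 and PSMB8, are limited by depth, as their intervals show.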

Other observations

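Other genes of the family that do not code for protein were mostly silent. Of 36 such rows outside the Y chromosome, 21 had 0 counts in both libraries and 5 had at least 10 counts in 1 library. PSMG3-AS1, an RNA antisense to the core chaperone gene PSMG3, had 282 counts in MAEL WT and 75 in MAEL KO, a log2 difference of -1.69 (-2.09 to -1.33). PSMG3 itself had the lowest value of the tested proteasome genes, -0.38. Without knowledge of strand in the counting, reads of a gene and its antisense partner cannot be told apart where they overlap. PSMG3 and PSMG3-AS1 share 60 exonic bases, none of them in the principal transcript of PSMG3. PSMA3-AS1, antisense to the alpha subunit gene PSMA3, had 504 and 356 counts (-0.29), while PSMA3 stood at 0.54. No part of the principal transcript of PSMA3 lies in exons of another gene. PSMD6-AS2 had 14 and 25 counts (0.99), PSMC1P1 had 66 and 79 (0.46) and PSMD10P2 had 31 and 13 (-0.99). The last 2 are pseudogenes, and reads from their parent genes may be split with them.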
